A study of Danio rerio with 12 samples.

Results

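All 12 ATAC-seq libraries entered the comparison of zebrafish osteoblasts with chondrocytes, 6 of each cell type, with head and trunk represented by 3 libraries each on both sides. Libraries were grouped by their titles. Each library was cut to its strongest accessibility summits, as many as the shortest list held, so that all lists entered with equal length. A summit is the single base of highest signal in a called peak. Neighbouring summits no more than 250 bp apart, from any library, were joined into 19415 regions, and the regions holding a summit in each cell type were compared. Of these regions, 337 held a summit in all 6 osteoblast libraries and in no chondrocyte library, and 761 did so in all 6 chondrocyte libraries and in no osteoblast library.

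Every fish was wild type and carried 3 transgenes, entpd5a:Gal4FF with UAS:GFP and, for cartilage, R2col2a1a:mCherry, and was 15 days post fertilisation. Osteoblasts were sorted as GFP-positive, mCherry-negative cells, from the head (called classical) or from the trunk (called non-classical). Chondrocytes were sorted as GFP-negative, mCherry-positive cells, from head cartilage or from the trunk, where they were intersegmental spinal cells. Both reporters were carried by all 4 groups, so a cell type here means the state of the entpd5a and R2col2a1a reporters at the sort. The labels call the libraries biological replicates without giving the fish behind each one, so p-values measure the spread between these libraries. The cell type labels were not checked against marker genes, since no gene was assigned to a region here.

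Osteoblasts build and mineralise bone matrix, and entpd5a encodes a phosphatase required for mineralisation of the zebrafish skeleton. Chondrocytes secrete cartilage matrix, whose main fibrillar collagen is type II, encoded in part by col2a1a. Both cell types can arise from common skeletal progenitors, and their gene programmes are driven by enhancers and promoters that are opened by different transcription factors, Runx2 and Sp7 in osteoblasts and Sox9 in chondrocytes. In ATAC-seq a transposase inserts sequencing adapters into accessible DNA, so peaks mark open promoters, enhancers and other regulatory elements.

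The full lists held 546075 summits, between 20380 and 78652 per osteoblast library (median 44945) and up to 79517 per chondrocyte library (median 48802). List length did not separate the cell types (difference 0.15 on the log2 scale, exact two-sided permutation within location, p = 0.755). At the last summit used, the authors' score (−log10 of p or q) ranged from 1.31 to 172. Equal numbers of summits therefore stand for very different significance limits. Trunk chondrocyte replicate 3 entered with its whole list, down to a score of 1.31, and held 1077 regions found in no other library, against 194 to 680 in the other 11 libraries. Absence of a region from a library means that no summit was among those used, and not that its chromatin was closed. Per the labels, replicate 1 of head osteoblasts, of trunk osteoblasts and of trunk chondrocytes had lost files and was represented from a later processing step.

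Most regions were shared unevenly. Of the 19415 regions, 8456 (43.6%) held a summit in at least 1 library of each cell type, 5413 (27.9%) in osteoblast libraries alone and 5546 (28.6%) in chondrocyte libraries alone. A single library accounted for 4772 regions (24.6%), and 2896 regions (14.9%) were found in all 12 libraries. The complete separation of the cell types covered 1.74% of regions for osteoblast-only and 3.92% for chondrocyte-only regions. Among the 1634 regions held by exactly 6 libraries, 20.6% lay in the 6 osteoblast libraries and 46.6% in the 6 chondrocyte libraries.

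**Figure D1:**
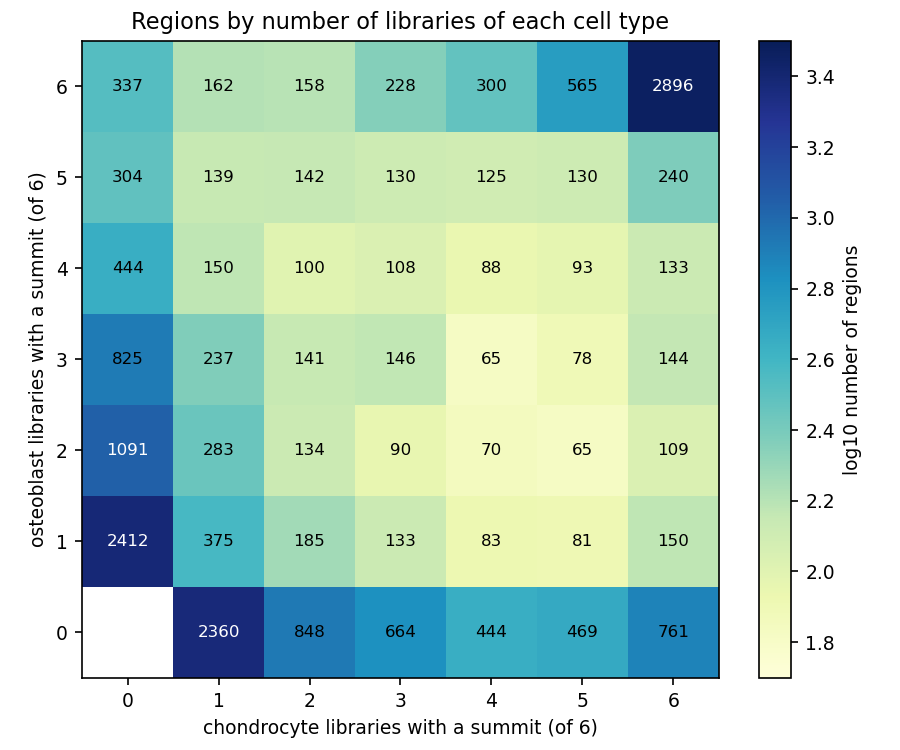
Number of regions by how many of the 6 osteoblast libraries (vertical axis) and how many of the 6 chondrocyte libraries (horizontal axis) held a summit, with lists of equal length. The corners hold the 337 osteoblast-only, 761 chondrocyte-only and 2896 shared regions, and the middle cell with 3 libraries of each type holds 146.

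Relaxing the rule by 1 library kept the same order. In 942 regions (4.85%) 5 or 6 osteoblast libraries and at most 1 chondrocyte library held a summit, and in 1461 regions (7.53%) the reverse was found. Just outside the rule lay 304 regions held by 5 osteoblast libraries and no chondrocyte library and 162 held by all 6 osteoblast libraries and 1 chondrocyte library. On the chondrocyte side these numbers were 469 and 150. The library missing from an otherwise complete set was most often trunk osteoblast replicate 1 (113 of the 304 regions) or trunk chondrocyte replicate 3 (262 of the 469 regions). These were also the libraries with the shortest lists of their cell types. The part of list length or depth in these counts was not tested.

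More regions separated in favour of chondrocytes than of osteoblasts in lists of equal length, and a shorter equal length kept this order. With the strongest 4000 summits of each library the numbers were 141 osteoblast-only and 381 chondrocyte-only regions of 8944. With full lists of unequal length the order turned, at 164 osteoblast-only and 115 chondrocyte-only regions of 133213. A chondrocyte-only region then still needed a summit in the shortest list, that of trunk chondrocyte replicate 3. The cause of the turn was not tested. Without the 3 libraries with lost files, 536 osteoblast-only and 882 chondrocyte-only regions of 17975 were found. With fewer libraries the rule is easier to meet. Leaving out any single library also raised the counts, to 345 to 449 and 769 to 1021.

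Libraries of the same cell type were more alike than libraries of different cell types. The Jaccard index, the number of regions common to 2 libraries divided by the number held by either, averaged 0.608 over pairs of one cell type and 0.411 over pairs of different cell types. The excess of 0.197 was the highest of all 400 relabellings of cell type within location (exact one-sided permutation test, p = 0.005, the smallest possible because exchanging both names gives the same value). With full lists of unequal length the averages were 0.384 and 0.329, and the excess was smaller, at 0.055 (same permutation test, p = 0.015).

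Regions chosen in one body location were then read in the libraries of the other, which had no part in choosing them. Head libraries alone gave 1302 osteoblast-only regions, present in all 3 head osteoblast libraries and absent from all 3 head chondrocyte libraries. The trunk osteoblast libraries held 50.8%, 54.3% and 69.7% of them (58.2% ± 10.0, SD, n = 3), and the trunk chondrocyte libraries held 8.53%, 8.45% and 12.1% (9.70% ± 2.11). The groups did not overlap, and the difference of 48.5 percentage points had the smallest p that 3 against 3 libraries can give (exact two-sided permutation test, p = 0.1). For comparison, a library held between 42.7% and 43.3% of all regions.

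The 1836 chondrocyte-only regions of the head were read in the same way. They were found at 78.2%, 80.2% and 61.7% in the trunk chondrocyte libraries (73.4% ± 10.2, n = 3) and at 13.3%, 12.1% and 9.69% in the trunk osteoblast libraries (11.7% ± 1.86). Here too every library of the first type exceeded every library of the second (difference −61.6 points, osteoblast minus chondrocyte, exact permutation p = 0.1). The lowest of the chondrocyte shares belonged to trunk chondrocyte replicate 3, the library with the shortest list.

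Reading from trunk to head gave the same directions. The 892 osteoblast-only regions of the trunk were held at 64.6%, 71.0% and 69.3% by the head osteoblast libraries (68.3% ± 3.31, n = 3) and at 11.5%, 12.9% and 20.5% by the head chondrocyte libraries (15.0% ± 4.84), a difference of 53.3 points. The 1217 chondrocyte-only regions of the trunk were held at 82.6%, 82.1% and 72.1% by the head chondrocyte libraries (78.9% ± 5.94, n = 3) and at 4.44%, 4.85% and 4.19% by the head osteoblast libraries (4.49% ± 0.332), a difference of −74.4 points. Neither pair of groups overlapped (exact two-sided permutation test, p = 0.1 for each, the smallest possible). With full lists the 4 differences were smaller, at 34.0, −29.0, 39.1 and −58.2 points in the order given here.

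**Figure D2:**
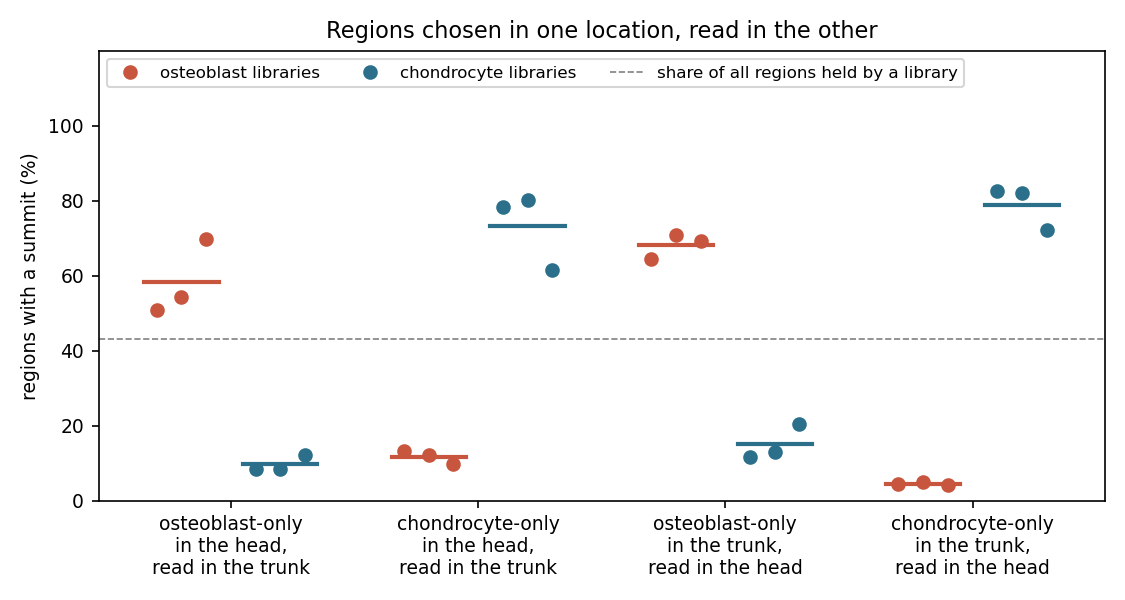
Share of regions (percent) held by each library of the location that was not used to choose them, for osteoblast-only and chondrocyte-only regions chosen in the head and in the trunk; points are libraries, short lines are means of 3 and the dashed line is the share of all regions held by a library. In each of the 4 sets the libraries of the matching cell type lie above those of the other type, for example 64.6% to 71.0% against 11.5% to 20.5% for trunk osteoblast-only regions read in the head.

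The 337 osteoblast-only regions were thus 25.9% of those separating in the head and 37.8% of those separating in the trunk, and the 761 chondrocyte-only regions were 41.4% and 62.5%. Complete reversal of presence between locations was rare. None of the 1302 head osteoblast-only regions was chondrocyte-only in the trunk, and 7 of the 1836 head chondrocyte-only regions were osteoblast-only in the trunk. A further 259 head osteoblast-only and 193 head chondrocyte-only regions were found in no trunk library of either type, and 165 and 151 of the trunk regions were found in no head library.

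Chondrocyte-only regions ranked higher in their libraries than osteoblast-only regions did in theirs. A rank of 1 is the summit with the highest score of a library. The median rank of the osteoblast-only regions was 4173, 4187 and 4422 in the head osteoblast libraries and 4766, 4615 and 3991 in the trunk osteoblast libraries. The chondrocyte-only regions had medians of 2806, 2572 and 3627 in the head chondrocyte libraries and 2670, 2780 and 3815 in the trunk chondrocyte libraries. The 2 sets of libraries did not overlap, at 3991 to 4766 against 2572 to 3815. These ranks come from the lists that chose the regions and are a description.

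The regions shared by all 12 libraries showed the reverse order. Their median rank lay between 1574.5 and 1670.5 in the osteoblast libraries (median 1637.75) and between 1757 and 2279.5 in the chondrocyte libraries (median 2089). No osteoblast library reached the lowest chondrocyte value. On the log2 scale the medians were 10.67 ± 0.03 in osteoblasts and 11.00 ± 0.13 in chondrocytes (SD, n = 6 each), a difference of −0.33 (exact two-sided permutation within location, p = 0.005, the smallest possible). Shared regions were therefore nearer the top of the osteoblast lists, and regions of 1 cell type nearer the top of the chondrocyte lists. Both orders come from the same ranks in lists of equal length, so they are not separate results.

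**Figure D3:**
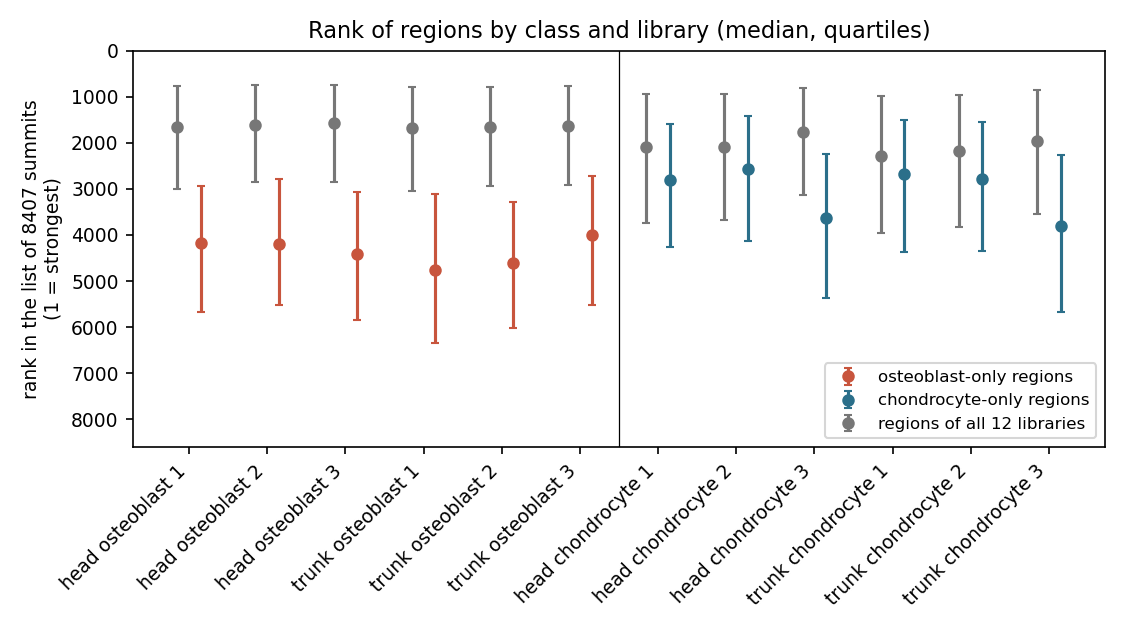
Median rank (rank 1 is the strongest summit) of the regions shared by all 12 libraries and of the cell-type-only regions, for each library, with bars from the lower to the upper quartile of regions. Shared regions sit at 1574.5 to 1670.5 in osteoblast and 1757 to 2279.5 in chondrocyte libraries, and the cell-type-only regions at 3991 to 4766 and 2572 to 3815.

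By the geometric mean over the 6 libraries holding it, the median osteoblast-only region ranked 4357 (quartiles 3265 and 5203), the median chondrocyte-only region 3065 (1844 and 4361) and the median shared region 1876 (898 and 3025). Within the first 1000 by this measure were 3 osteoblast-only regions (0.890%) and 67 chondrocyte-only regions (8.80%), beside 935 of all regions (4.82%). Within the first 2000 were 21 (6.23%) and 213 (28.0%), beside 1535 of the shared regions (53.0%) and 2025 of all regions (10.4%). For regions held by exactly 6 libraries, which include both classes, the shares were 4.53% and 14.9%. The strong end of the chondrocyte lists thus held more separating regions than that of the osteoblast lists.

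A separating region was seldom without any summit once the other cell type's lists were read in full. Within 250 bp, 3 osteoblast-only regions (0.890%) had no summit in any full chondrocyte list and 22 chondrocyte-only regions (2.89%) had none in any full osteoblast list. Of the osteoblast-only regions, 176 (52.2%) had a weaker summit in 5 chondrocyte libraries, the most possible because trunk chondrocyte replicate 3 was used whole. Of the chondrocyte-only regions, 108 (14.2%) had one in all 6 osteoblast libraries. Weaker summits of the other cell type were thus present in at least 1 full list at nearly all separating regions, and their share in each library is set beside its background next.

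The weaker summits tended to be more frequent in longer lists. The head chondrocyte libraries, with 79517, 51158 and 46446 summits, had them at 95.3%, 85.8% and 89.6% of the osteoblast-only regions, and trunk chondrocyte replicates 1 and 2, with 27334 and 55274 summits, at 57.3% and 91.4%. Among osteoblast libraries the shares of chondrocyte-only regions ran from 34.3% in trunk osteoblast replicate 1, with 20380 summits, to 93.2% in head osteoblast replicate 2, with 78652. As background, the head chondrocyte libraries had such a summit at 84.6%, 78.4% and 75.9% of all regions they did not hold among their strongest summits, and trunk chondrocyte replicates 1 and 2 at 62.5% and 81.6%. The head osteoblast libraries had chondrocyte-only regions at 49.9%, 93.2% and 89.8% against a background of 56.3%, 83.0% and 77.9%, and the trunk osteoblast libraries at 34.3%, 38.5% and 80.2% against 41.8%, 53.5% and 80.2%. The shares lay above the background in 6 of these 11 libraries, below it in 4 and within 0.1 points of it in trunk osteoblast replicate 3, and nothing particular to the separating regions is read from them.

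The strongest osteoblast-only regions are given by position (GRCz11, named danRer11 in the labels, counted from 1). Their ranks in head osteoblast replicates 1 to 3 and then trunk osteoblast replicates 1 to 3 are listed in that order. The region chr2:3545287-3545294 ranked 1210, 773, 553, 1251, 665 and 694, and 5 chondrocyte libraries had a summit there only at ranks 10736 to 32570 of their full lists. The region chr19:40983184-40983249 ranked 921, 944, 751, 528, 1270 and 753, against ranks 19264 to 31596 in 5 chondrocyte libraries. Both were near the top of every osteoblast list, in head and trunk alike.

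The region chr18:7167897-7167904 ranked 584, 947, 1877, 628, 1666 and 352, and chondrocyte summits there began at rank 8838, just beyond the summits used. In chr24:9511672-9511684 the ranks were 402, 411, 1143, 3024, 2689 and 687, with chondrocyte summits at ranks 9804 to 27096 in 4 libraries. The region chr3:23498780-23498839 ranked 922, 815, 1513, 1827, 1152 and 1168, with chondrocyte ranks from 9771 to 17346 in 5 libraries. The chromosome 24 region was uneven among trunk libraries, and that on chromosome 3 was nearly even in all 6. None of the 337 osteoblast-only regions was free of chondrocyte summits within 1000 bp in the full lists.

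Of the chondrocyte-only regions, 15 (1.97%) were free of any osteoblast summit within 1000 bp in all full lists. Their ranks follow for head chondrocyte replicates 1 to 3 and trunk chondrocyte replicates 1 to 3. The region chr4:13635873-13635893 ranked 2135, 1759, 1808, 1596, 2668 and 1621, and chr2:36613526-36613544 ranked 2532, 1348, 3086, 1345, 2798 and 1381. The region chr10:37229-37250 ranked 1938 and 1802 in head replicates 2 and 3 but 4804 in trunk replicate 3. Apart from that last value, all 3 lay within the first 4000 summits of the chondrocyte lists, while no osteoblast library, the longest with 78652 summits, had any summit there.

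Weaker members of the same set were chr15:18026807-18026819, with ranks of 3454, 2984, 5788, 1361, 1614 and 6663, and chr19:40985383-40985449, with ranks of 3579, 3312, 3044, 5415, 3639 and 4027. The chromosome 15 region was strongest in trunk replicates 1 and 2. The chromosome 19 region lay 2134 bp from the osteoblast-only region at chr19:40983184-40983249 described above.

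The strongest chondrocyte-only regions of all, named after their values were seen, did have weak osteoblast summits. The region chr14:16876281-16876338 ranked 52, 24, 672, 154, 24 and 395 in the chondrocyte libraries, and its osteoblast summits stood at ranks 20417 to 28741 in 4 libraries. In chr17:11558889-11559015 the chondrocyte ranks were 57, 50, 228, 189, 362 and 103, against 11293 to 47038 in 4 osteoblast libraries. In chr3:26435438-26435572 they were 93, 144, 341, 78, 89 and 204, against 10584 to 21361 in all 6 osteoblast libraries. All 3 were among the first 1000 summits of every chondrocyte library.

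**Figure D4:**
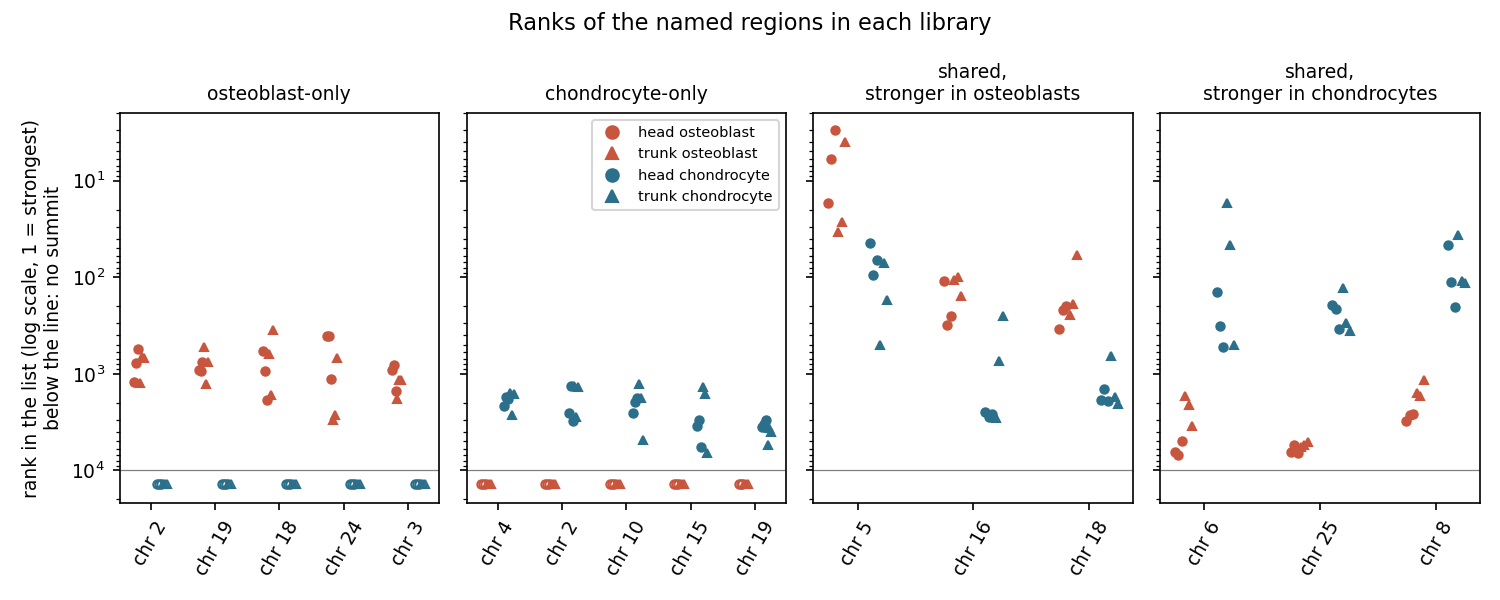
Rank (log axis, rank 1 at the strong end) of the named osteoblast-only, chondrocyte-only and shared regions in each library; one point per library, coloured by cell type and marked by location, with libraries lacking the region drawn below the grey line. The 5 osteoblast-only regions lie between ranks 352 and 3024 and the 5 chondrocyte-only regions between 1272 and 6663, each in 6 libraries of 1 cell type. The chondrocyte-only regions shown came only from the 15 free of osteoblast summits within 1000 bp. No osteoblast-only region was free of chondrocyte summits, so those shown came from all 337, and the 2 sets cannot be compared in strength.

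Opposed regions could lie close together. In 20 pairs an osteoblast-only and a chondrocyte-only region were within 10 kb, in 10 pairs within 5 kb and in 2 pairs within 1 kb. The closest pair was chr14:31221629-31221756 in osteoblasts and chr14:31221236-31221315 in chondrocytes, 314 bp apart, with geometric mean ranks of 4134 and 2176. The other pair within 1 kb was chr7:17928724-17928771 in osteoblasts and chr7:17928300-17928329 in chondrocytes, 395 bp apart, with geometric mean ranks of 2873 and 1224. Pairs this close were chosen for their distance after the regions were known. A peak whose summit moves can also give neighbouring regions, and 18 osteoblast-only (5.34%) and 19 chondrocyte-only regions (2.50%) had a summit of the other type within 1000 bp among the summits used of at least 1 library.

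Chondrocyte-only regions lay near one another more often than regions in general. Another chondrocyte-only region was within 100 kb of 38.1% of the chondrocyte-only regions, against 20.3% of all regions and 19.3% of the osteoblast-only regions. Another osteoblast-only region was within 100 kb of 16.9% of the osteoblast-only regions, against 9.49% of all regions and 10.6% of the chondrocyte-only regions. Each class was thus more crowded with its own kind, a description without a test. Their median widths were 61 and 68 bp, beside 63 bp over all regions held by exactly 6 libraries, which include them, and 32 bp over all regions, which include those of a single library. The classes lay a median of 95124 and 87891 bp from the nearest shared region, against 89061 bp for all regions.

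Both classes were spread over all 25 chromosomes. The share of regions that were osteoblast-only ran from 0.951% on chromosome 4 to 2.54% on chromosome 17, and the share that were chondrocyte-only from 1.87% on chromosome 22 to 5.87% on chromosome 12. Chromosome 7 had the most chondrocyte-only regions, 56, beside 15 osteoblast-only ones. On chromosome 22 the classes were equal at 10 regions each, and on each of the other 24 chromosomes chondrocyte-only regions were the more numerous.

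Counted in 100 kb windows, the separating regions mostly stood alone in their class, and a few windows held several. Osteoblast-only regions fell in 306 windows, of which 18 had at least 2 and 3 had at least 3. Chondrocyte-only regions fell in 630 windows, of which 89 had at least 2 and 18 had at least 3, and 40 windows held both classes. The windows with the most separating regions were chosen for that number, so their counts are given without a test.

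The window chr21:6400001-6500000 contained 4 osteoblast-only regions. It held 7, 6 and 5 regions in the head osteoblast libraries, 5, 6 and 6 in the trunk osteoblast libraries, and 0 in all 6 chondrocyte libraries. The window chr2:37700001-37800000 contained 3 osteoblast-only regions and held 4, 4, 4, 3, 3 and 4 regions in the same order, again with 0 in every chondrocyte library. In chr17:45000001-45100000 the osteoblast libraries held 5, 4, 6, 3, 3 and 5 regions and the chondrocyte libraries 2, 1, 0, 2, 1 and 0. The groups did not overlap in any of these windows, and none of them held a region shared by all 12 libraries.

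On the chondrocyte side, chr18:46300001-46400000 contained 4 chondrocyte-only regions. It held 7, 7, 7, 6, 7 and 8 regions in the chondrocyte libraries and 0, 1, 0, 2, 0 and 1 in the osteoblast libraries. In chr15:43400001-43500000, also with 4 such regions, the counts were 6, 6, 6, 8, 7 and 6 against 0, 0, 1, 2, 3 and 2. In chr11:22100001-22200000 they were 5, 5, 5, 8, 8 and 4 against 1, 1, 1, 2, 4 and 3, so that the lowest chondrocyte library equalled the highest osteoblast library. That window held 4 chondrocyte-only regions and 1 osteoblast-only region. With full lists the window fit also had log2 list length as a covariate. The log2 differences of the chromosome 15 and 11 windows (osteoblast minus chondrocyte) were then −0.35 and −0.23. Here they were −2.29 and −1.44 without that covariate, so the settings differ in more than the lists.

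Counts of regions were tested over the 3503 windows that averaged 1 or more regions in a library. The window fit used limma on log2(regions + 0.5) with 4 group means, and the cell type difference was averaged over head and trunk. At a Benjamini-Hochberg adjusted p below 0.05, 392 windows (11.2%) held more regions in osteoblasts and 456 (13%) more in chondrocytes. Of these 848 windows, 803 had the same sign in head and trunk. Opposite signs tend to cancel in a difference averaged over both, so this agreement is partly built into the calls. In 485 windows every library of a group had the same count, and 66 of those were among the windows called. With the residual spread of each window held at or above the median of all windows, a setting added after the data were seen, 610 windows were called (17.4%), all of them among the 848. The counts were sums of the presence values that the rule had used, and a window could pass the filter through 1 cell type alone. The window calls thus partly restate that presence and are no separate support.

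Ranks allowed a test of strength over all regions held by at least 3 libraries. In this fit the value was log2(2N/rank), N being the number of summits used per library, a library without the region was set to 0, and limma compared the cell types with the same 4 group means. Of 12329 regions, 3510 (28.5%) ranked higher in osteoblasts and 3055 (24.8%) ranked higher in chondrocytes at an adjusted p below 0.05. Together these were 53.2% of the regions tested. Of the calls, 2724 and 2802 were in the 9433 tested regions that were not in all 12 libraries. Every absent library had the same value of 0 there, which fixed part of the spread. Those calls thus partly restate the presence that the rule had already used. With regions required in at least 6 libraries, 2277 and 1747 of 7743 passed. Of the 3510 and 3055 regions called with 3 libraries required, 2285 and 2423 differed by more than 1 on the log2 scale. For location, head against trunk averaged over both cell types, 1513 regions (12.3%) passed. The median absolute difference over all tested regions was 0.83 for cell type and 0.38 for location.

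Counting presence alone, Fisher's exact test per region with Benjamini-Hochberg adjustment called 1098 regions (8.91%). These were 337 in favour of osteoblasts and 761 in favour of chondrocytes, the numbers of fully separating regions. The test used the same presence values as the rule, so the match repeats the rule and is no separate support.

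In the 2896 regions of all 12 libraries no value was set for an absent library, so their values were ranks alone. They were read from the fit of all 12329 regions. The moderated spread and the adjustment thus also drew on regions with absent libraries. Of the 2896, 786 (27.1%) ranked higher in osteoblasts and 253 (8.74%) in chondrocytes. When the fit took regions of at least 1 library, the same 2896 gave 651 and 220. The median difference over the shared regions was 0.36 on the log2 scale, 0.39 in the head and 0.35 in the trunk, so part of each osteoblast call was common to all of these regions. When each library was centred on the median of its shared regions, a scaling added after the data were seen, 360 ranked higher in osteoblasts and 412 in chondrocytes. The share of calls in favour of osteoblasts then fell from 75.6% to 46.6% in the shared regions and from 53.5% to 44.1% in all tested regions. All 253 chondrocyte calls and 360 of the 786 osteoblast calls held under both scalings, so an excess of stronger shared regions in osteoblasts held only for ranks as they stood.

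The largest differences in shared regions kept their direction and their call in all 150 values from alternative settings, over 6 named regions. In chr18:36733238-36733299 the osteoblast ranks were 59 at the lowest, 210 at the median and 343 at the highest, and the chondrocyte ranks 655, 1813 and 2034. The groups did not overlap, and the difference was 3.02 ± 0.40 in favour of osteoblasts on the log2 scale (SE, limma adjusted p = 7.63e-05). In chr16:16849014-16849079 the osteoblast ranks ran from 100 to 314 (median 133.5) and the chondrocyte ranks from 255 to 2898 (median 2571), a difference of 3.23 ± 0.50 (limma adjusted p = 0.000291). The groups overlapped there through trunk chondrocyte replicate 3, at rank 255.

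The region chr5:13767372-13767457 was among the very strongest of both cell types. Its ranks were 17, 6, 3, 34, 27 and 4 in the osteoblast libraries and 44, 95, 67, 501, 72 and 171 in the chondrocyte libraries. No osteoblast library ranked it below any chondrocyte library, and the difference was 3.43 ± 0.67 (limma adjusted p = 0.00145). Head and trunk gave 3.28 and 3.57.

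Of the named shared regions, those stronger in chondrocytes showed larger differences. Over all 2896 shared regions the order was not the same, as 386 osteoblast calls and 186 chondrocyte calls differed by more than 1. In chr25:31011092-31011269 the chondrocyte ranks were 194, 213, 344, 131, 297 and 358 and the osteoblast ranks 6486, 5460, 6556, 5722, 5506 and 5105. The gap between the groups was far wider than the spread within them, at −4.58 ± 0.27 (osteoblast minus chondrocyte, limma adjusted p = 3.19e-07). The head and trunk differences were −4.67 and −4.50.

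In chr8:49331487-49331557 the chondrocyte ranks were 46, 112, 205, 37, 109 and 115 and the osteoblast ranks ran from 1165 to 3109 (median 2151.5), a difference of −4.51 ± 0.39 (limma adjusted p = 3.99e-06). In chr6:41637001-41637037 the chondrocyte ranks ran from 17 to 532 (median 231.5) and the osteoblast ranks from 1708 to 6965 (median 4251), a difference of −4.69 ± 0.68 (limma adjusted p = 0.000173). Neither pair of groups overlapped. All 3 regions would separate the cell types completely at a list of 1000 summits, although each library of both types had them among the summits used.

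Head and trunk were set side by side as separate contrasts, which have no library in common. Across the 12329 tested regions the cell type difference of the head and that of the trunk had a Pearson correlation of 0.77, and 9183 regions (74.5%) had the same sign. Across the shared regions the correlation was 0.70, and 2183 (75.4%) had the same sign. These values are over regions, which are not independent, and ranks within a library share its depth.

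**Figure D5:**
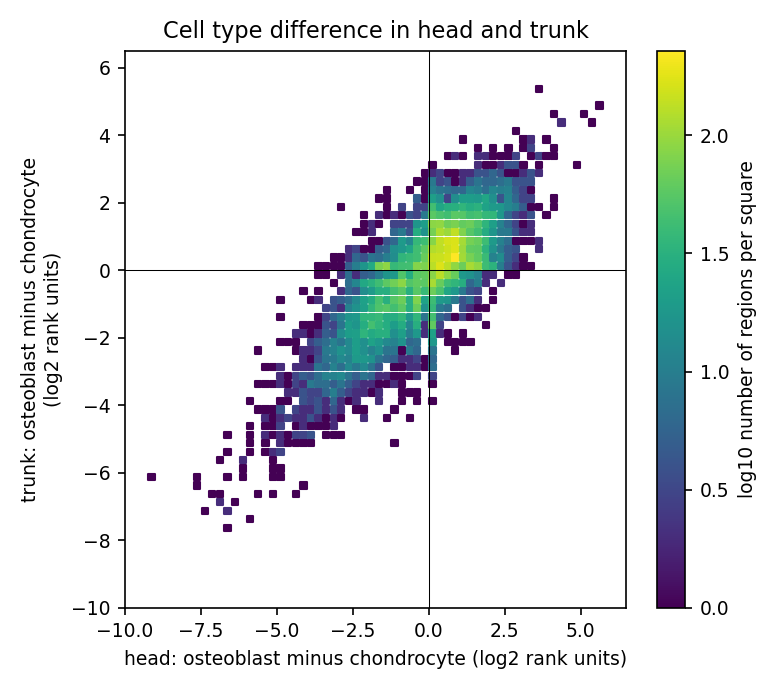
Cell type difference (osteoblast minus chondrocyte, log2 scale of rank) in the head on the horizontal axis and in the trunk on the vertical axis, as the number of regions per square (log10 colour scale) over the 12329 regions tested. Most regions lie along the diagonal (Pearson correlation 0.77), and 9183 have the same sign in both locations.

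The cell type difference itself differed between head and trunk in 992 of the tested regions (8.05%, limma interaction contrast, adjusted p below 0.05). The head and trunk differences did not share a sign in 863 of the 992. A region held by a single group has a difference of 0 in the other location, so a region that passed need not reverse its sign. Among shared regions 21 (0.725%) passed, and 14 of these had opposite signs in head and trunk. With 6 libraries required 23 of 7743 regions passed, and with absent libraries at rank N + 1 167 of 12329 passed. The regions named here met the filter of 3 libraries only through the groups where they were high, with all other libraries set to 0, and are given as a description. The region chr19:4100204-4100300 was present in trunk osteoblasts at ranks 5571, 4170 and 5069 and in head chondrocytes at ranks 1584, 3197 and 2921, and in none of the other 6 libraries. Head libraries gave a difference of −2.78 and trunk libraries one of 1.78 on the log2 scale of rank.

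Other regions of this kind were held by a single group. The region chr24:41585891-41585929 ranked 1980, 1548 and 1781 in head osteoblasts and was in no other library. The region chr12:44674472-44674483 ranked 1834, 1962 and 1696 in head chondrocytes alone. The count of interactions was unstable: without the 3 libraries with lost files no region passed, with 1065 at an unadjusted p below 0.05, and leaving out head osteoblast replicate 2 left 61.

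A shared region can also have its strongest summit at another base in each cell type. Over the 2896 shared regions the median absolute difference in mean summit position was 6.83 bp. In 27 regions (0.932%) the position differed at a limma adjusted p below 0.05, by 18 to 295 bp with a median of 78.2 bp, and 255 regions had an unadjusted p below 0.05. Of the 27, 21 differed by more than 50 bp. Where a library had several summits in a region, the strongest gave the position. A shift can therefore also be a change in which summit was the strongest.

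In chr2:29249388-29249773 the osteoblast summits lay 0 to 107 bp from the region's start (median 37.5) and the chondrocyte summits 310 to 385 bp from it (median 337.5). The shift was −295 ± 13.6 bp (osteoblast minus chondrocyte, SE, limma adjusted p = 1.55e-06), −301 bp in the head and −289 bp in the trunk. In chr23:27822673-27822990 the order was the other way, with osteoblast summits at 269 to 317 bp and chondrocyte summits at 0 to 48 bp (263 ± 11.9 bp, limma adjusted p = 1.55e-06). In both regions the positions of the cell types were apart in every library.

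Smaller shifts of the same clarity were seen in chr23:3229838-3230090, where osteoblast summits lay at 152 to 252 bp and chondrocyte summits at 0 to 16 bp (225 ± 15.1 bp, limma adjusted p = 3.88e-05), and in chr7:55434801-55434958, at 123 to 157 bp and 0 to 14 bp (142.5 ± 6.29 bp, limma adjusted p = 1.55e-06). In chr16:34075242-34075714 the ranges overlapped, at 37 to 355 bp in osteoblasts and 338 to 472 bp in chondrocytes (−260.5 ± 42.5 bp, limma adjusted p = 0.0266). The number of shifted regions fell to 13, 10 and 16 without head osteoblast replicates 1, 2 and 3, and to 15, 13 and 14 without head chondrocyte replicates 1, 2 and 3.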

How the data were processed

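Chromatin accessibility was measured by ATAC-seq in 12 libraries. Per the labels' protocols, transposase volume and reaction time were set by the cells obtained for each library, so enzyme dose can vary between libraries. Per the submitters' processing notes, the tools were MACS2, Bowtie2, fastp, SAMtools, deepTools and bedtools, with danRer11 (GRCz11). The sources used here give neither settings nor versions for them. For each library the deposited lists hold summit positions and a score that the authors' peak caller wrote as the −log10 of a q-value or p-value. Peaks were called per library. The scores grow with depth and were used only to rank summits within a library. Read depth is unknown here apart from the number of summits. Replicate numbers follow the titles, from which the numbers in the peak names differ in 7 of the 12 lists.

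Positions were converted to count from 1. The fits used limma 3.58.1 in R 4.3.3 with trended and robust variance moderation, 4 group means and 8 residual degrees of freedom, with Benjamini-Hochberg adjustment at 0.05. The value of a region was log2(2N/rank) with N = 8407, the length of the shortest list (trunk chondrocyte replicate 3), so that an absent region (0) stands at rank 2N, and regions needed at least 3 libraries. Windows used a pseudocount of 0.5 regions, so changes between low counts are understated. Single values were tested by exact permutation. Tables and figures were made with Python 3.11.15. The fits were tested on simulated data.

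Named regions were, per direction, the separating regions of lowest mean log2 rank on the 25 chromosomes that lacked a summit of the other type within 1000 bp in full lists, filled up with other separating regions. The rule also took shared regions of largest called difference, the smallest interaction p-values, the windows with most separating regions and the largest summit shifts, of which only some are described. The members, rules and settings were chosen with earlier results of these data known. Alternatives covered list length, chaining distance, filters, the rank of absent regions, window size, replicate blocks, lost files and each library left out. Neither sequence nor annotation of GRCz11 was used here, so genes, promoters and motifs are not analysed here.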

Additional observations from a re-analysis of the deposited data

Results flagged for a closer look

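Trunk chondrocyte replicate 3 stood apart from the other chondrocyte libraries in the number of regions found in no other library, 1077 against 194 to 358. It also held the fewest regions, 8297 against 8403 to 8406. Its whole list was used, and its score at the last summit was 1.31. In the shared region chr18:36733238-36733299 the rank of 59 in trunk osteoblast replicate 3 lay apart from the 191 to 343 of the other osteoblast libraries, and the rank of 655 in trunk chondrocyte replicate 1 lay apart from the 1432 to 2034 of the other chondrocyte libraries. These came from Dixon's test at 95% in 46 groups of 6 libraries, and chance flags about 1 group in 20.

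The cell type difference differed between head and trunk, by the interaction contrast of limma, in 992 regions. The named ones were chr19:4100204-4100300 with an interaction of −4.55 on the log2 scale of rank, chr12:44674472-44674483 with −3.20, chr24:41585891-41585929 with 3.26, and chr10:25065912-25066052 with −3.19. The last was held by trunk osteoblasts at ranks 6420, 4467 and 5358 and by head chondrocytes at ranks 5844, 5793 and 5771, and by no other library. Those on chromosomes 12 and 24 were held by a single group, and in all 4 regions the libraries without a summit were set to the same value of 0, so their spread was fixed by that setting and no p is given for them.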

How the results depend on the processing

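With 4000 summits per library there were 141 osteoblast-only and 381 chondrocyte-only regions of 8944. Of 5845 regions tested, 1597 and 1380 ranked higher in osteoblasts and in chondrocytes, and 111 were interactions. Of 1429 shared regions, 350 and 87 ranked higher and 12 were summit shifts. Of 1851 windows, 149 and 183 were called. Full lists gave 164 and 115 separating regions of 133213 and a similarity excess of 0.055 (exact one-sided permutation within location, p = 0.015). The differences in the other location were 34.0, −29.0, 39.1 and −58.2 points, with pooled SDs of 24.1, 25.3, 15.7 and 17.1. The rank and position fits were not run on full lists because ranks need lists of equal length. Without the libraries with lost files there were 536 osteoblast-only regions of 17975 and 244 osteoblast windows of 3549. Among 10650 regions tested there were 0 interactions (limma, 1065 at an unadjusted p below 0.05). The chondrocyte-only regions of the trunk differed by −69.5 points in the head. Requiring 6 libraries gave 2277 and 1747 ranked regions and 23 interactions of 7743 tested. Requiring 1 library gave 122 interactions of 19415, and setting absent libraries to rank N + 1 gave 167 of 12329. Fisher's exact test, on the same presence values as the rule, called 337 and 761 regions. No window filter gave 761 and 876 windows of 6928, and chaining at 100 bp gave 14 summit shifts in 2783 shared regions. Centring gave 360 and 412 shared regions.

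The replicate numbers of the titles gave no pairing of the libraries on average. Same-numbered libraries had a mean correlation of deviations of −0.008 over 18 pairs, from −0.251 to 0.332, with 4 above 0.1. Whether single libraries were paired was not tested. A replicate block by these numbers gave 3482 and 3105 ranked regions, 376 and 438 windows, 558 interactions and 13 summit shifts. A replicate block by the numbers in the peak names, added after the data were seen, gave 444 shared regions higher in osteoblasts, 214 and 279 windows, 16 interactions and 7 summit shifts. Number 1 occurred in the peak names of chondrocyte libraries only, so this block overlapped with cell type. Its lower counts are therefore not read as an effect of pairing.

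Leaving out each library in turn gave 345 to 449 osteoblast-only and 769 to 1021 chondrocyte-only regions, a similarity excess of 0.189 to 0.210, 2931 to 3757 and 2625 to 3115 ranked regions, 634 to 1097 and 215 to 293 shared regions, 337 to 461 and 403 to 482 windows, 61 to 966 interactions and 10 to 35 summit shifts. The differences in the other location ran from 42.7 to 52.3, −67.4 to −56.8, 43.3 to 56.1 and −77.8 to −65.3 points, and that of the log2 rank of shared regions from −0.38 to −0.31. Interactions fell to 77, 61 and 82 without head osteoblast replicates 1, 2 and 3, to 459 and 340 without trunk osteoblast replicates 1 and 2, to 207, 171 and 241 without head chondrocyte replicates 1, 2 and 3, and to 369 and 459 without trunk chondrocyte replicates 1 and 2. No single value changed sign under the settings run, but the order of paired counts could turn. Full lists turned that of the separating regions, and centring turned that of the shared regions and of all tested regions (2645 and 3357). Leaving out trunk chondrocyte replicate 2 turned that of the windows (419 in osteoblasts and 409 in chondrocytes). Of the 6 named shared regions all 150 values kept their call. The causes were not tested. Depth limits every absence: a missing summit may lie below the list of that library.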
